A study of Mus musculus with 24 samples.

Results

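Mouse neural progenitor cells (NPC) in which Htt had been knocked out (KO) were compared with wild-type (WT) NPC by gene-level RNA sequencing. The comparison takes the libraries that the sample titles and column names give as KO or WT in the NPC table, 2 KO and 2 WT libraries, so 4 of the 24 libraries of the series. The other 8 NPC libraries come from heterozygous knock-in lines with 20, 50, 92 or 111 CAG repeats in Htt (Q20, Q50, Q92 and Q111), and they entered the estimate of the spread, which therefore rests on 12 libraries. The remaining 12 libraries are mouse embryonic stem cells (mESC) of the same 6 genotypes. By its title the series is about CAG repeats and splicing, but the tables hold 1 value per gene and library.

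All NPC had been made from mESC by adherent differentiation in N2B27 medium and were then grown on laminin with FGF and EGF, and the mESC before that were kept with leukaemia inhibitory factor over a feeder layer of mouse embryonic fibroblasts. The nature of the KO allele, the number of clones behind the KO and WT lines and the origin of both lines are not given in the sources used here. The labels do not say whether the libraries of a genotype came from separate cultures, so p-values measure only the spread between these libraries. The knock-in lines carry the repeat on 1 of their Htt alleles, and the third length is given as 92 in the sample titles and as 89 in the growth protocol.

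Huntingtin, the product of Htt, is a large, mostly helical scaffold protein that binds motor adaptors, endocytic proteins and transcriptional regulators. It takes part in the transport of vesicles along microtubules, in the orientation of the mitotic spindle of progenitors and in holding the repressor REST in the cytoplasm. Mice without it die early in gastrulation, whereas embryonic stem cells without it can be grown and can form neural cells, and an expanded CAG repeat in its first exon causes Huntington's disease.

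Values are CPM, the reads of a gene relative to the reads of its library, scaled by TMM, a factor that corrects for differences in library composition. Changes are KO minus WT on the log2(CPM + 1) scale, on which changes of low genes look smaller than they are, and a gene was called where the limma Benjamini-Hochberg adjusted p of a two-sided test over all 13206 genes tested was under 0.05. A pair of groups did not overlap where both libraries of one lay above both of the other. Recovered reads were 55557667 and 84575732 in the WT libraries and 105354008 and 118038952 in the KO libraries, within a range of 48525333 to 118038952 over the 12 NPC libraries. In most libraries this is above the approximate depth stated in the protocol, and whether the mates of a pair were counted separately is not given in the sources used here.

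Htt (ENSMUSG00000029104, chromosome 5, 34761740 to 34912534, plus strand, GRCm38, 67 exons in its longest transcript) was lower in the KO libraries, but its reads did not disappear and the difference missed the threshold. Its level was 137 and 177 CPM in the WT libraries and 100.1 and 94.9 CPM in the KO libraries. The KO mean was 62.1% of the WT mean, a change of -0.67 (SE 0.14, adjusted p 0.0673). The knock-in libraries lay at 157 and 155 CPM in Q20, 182 and 173 in Q50, 184 and 168 in Q92 and 137 and 150.2 in Q111. Both KO libraries were below all 10 other NPC libraries, and the WT libraries lay among the knock-in ones. Which exons the allele removes, if any, is not given in the sources used here, so the remaining reads neither meet nor contradict the label. Of the 11 tested genes of the list of Htt and its neighbours on chromosome 5, limma called 0, and 1 had an unadjusted p under 0.05; edgeR called 0 and DESeq2 1. The Htt call appeared when WT replicate 1 (adjusted p 0.0241) or WT replicate 2 (0.0388) was left out, and the adjusted p ran from 5.24e-05 to 0.999 over all alternatives.

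**Figure D1:**
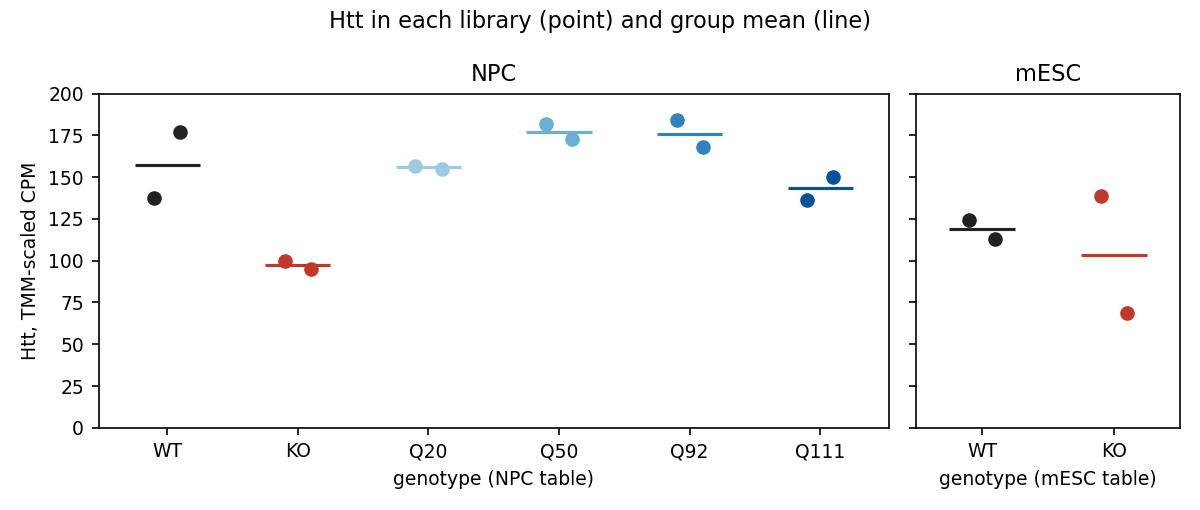
Htt in TMM-scaled CPM (vertical axis) by genotype in the NPC table (left) and, for WT and KO only, in the separately scaled mESC table (right); points are libraries and lines are means of 2 libraries. In NPC the KO libraries stand at 100.1 and 94.9 CPM, below every other library, while in mESC the library labelled KO 1 stands at 139 CPM, above both WT libraries.

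Between KO and WT NPC, limma called 188 of 13206 genes (1.42%), of which 116 (0.878%) were higher and 72 (0.545%) lower in KO, and 1755 genes had an unadjusted p under 0.05. The KO and WT libraries did not overlap for any of the 188; over all genes tested, both KO libraries were above both WT libraries for 15.8% and below both for 13.9%. The largest rises were of genes that were low in WT, among them the angiotensin receptor Agtr2, the RNA-binding protein gene Khdrbs2, the homeobox genes Hoxa9 and Hoxc6, the chemokine Cx3cl1 and the growth factor Bmp5. The largest falls were of Akap5, Spryd4 and B3glct. A fit on the 4 KO and WT libraries alone called 0 genes, with 650 at an unadjusted p under 0.05, and one with a weight for each genotype called 10. Leaving out WT replicate 2 raised the count to 1577, and leaving out KO replicate 1 lowered it to 107. Of the 188 genes, 73 were called again without KO replicate 1, 88 without KO replicate 2, 80 without WT replicate 1 and 187 without WT replicate 2; edgeR on the recovered reads called 107 and DESeq2 905. Of the 42 genes named below by rule, 24 were called by edgeR, 9 with genotype weights, 0 in the fit of 4 libraries and 23 in each of the 4 fits that left out 1 library of KO or WT.

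Agtr2, the type 2 receptor for angiotensin II, on the X chromosome (21484544 to 21489164), stood at 0.0526 and 0.209 CPM in WT and 14.6 and 32.3 CPM in KO, a change of 4.34 (SE 0.30, adjusted p 0.000901). Both KO libraries were above all other NPC libraries and both WT libraries below them; of the knock-in lines, Q92 came nearest, at 12.8 and 13.1 CPM. Khdrbs2, which encodes the SAM68-like splicing regulator SLM1 (chromosome 1, 32172714 to 32658568), rose from 0.963 and 0.0736 CPM to 22.0 and 21.5 CPM, by 3.97 (SE 0.31, adjusted p 0.00116). The 2 KO libraries nearly coincided, and the next highest, those of Q20, stood at 4.97 and 5.47 CPM. Bmp5, a secreted ligand of the bone morphogenetic protein family (chromosome 9, 75775364 to 75900310), was at 1.82 and 1.63 CPM in WT and 34.4 and 24.4 CPM in KO, a change of 3.46 (SE 0.22, adjusted p 0.000449). Its 8 knock-in libraries lay between 0.0677 and 2.92 CPM, so the KO libraries stood alone. Kcne4, an accessory subunit of voltage-gated potassium channels, rose from 0.105 and 0.0859 CPM to 6.68 and 5.48 CPM, by 2.69 (SE 0.21, adjusted p 0.00116). Grm4, the metabotropic glutamate receptor 4, rose from 0.928 and 1.08 CPM to 14.2 and 8.91 CPM, by 2.62 (SE 0.22, adjusted p 0.00156). For both, the KO libraries were again the highest of the 12. With edgeR the calls of these genes other than Agtr2 and Bmp5 were lost, at an adjusted p of 0.0849 for Khdrbs2 (range over its alternatives 3.54e-06 to 0.451), 0.0992 for Kcne4 (range over its alternatives 3.82e-05 to 0.451) and 0.0597 for Grm4 (range over its alternatives 1.78e-08 to 0.574).

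Cx3cl1, the membrane-anchored chemokine fractalkine (chromosome 8, 94772009 to 94782427), differed the other way round: it was the WT libraries that stood apart. Its level was 2.68 and 5.15 CPM in WT, 62.5 and 44.0 CPM in KO and from 55.0 to 99.4 CPM in the 8 knock-in libraries, and the change from WT to KO was 3.49 (SE 0.26, adjusted p 0.000901). Tmem132c, a transmembrane protein gene of little-known function, stood at 3.68 and 2.05 CPM in WT and 56.3 and 23.8 CPM in KO (change 3.32, SE 0.39, adjusted p 0.00859), with Q20 and Q50 within the range of KO and Q111 at 0.0406 and 0.0709 CPM. Anxa1, the calcium- and phospholipid-binding protein annexin A1, rose from 0.368 and 1.39 CPM to 8.87 and 18.4 CPM, by 2.94 (SE 0.35, adjusted p 0.00859). It was higher still in Q111, at 26.8 and 27.6 CPM. Tlr3, the endosomal receptor for double-stranded RNA, rose from 1.98 and 7.95 CPM to 33.0 and 38.1 CPM, by 2.82 (SE 0.42, adjusted p 0.0244), and the KO libraries were the highest of the 12. Hydin, a protein of the central pair of motile cilia, rose from 0.701 and 2.01 CPM to 7.97 and 19.3 CPM, by 2.58 (SE 0.38, adjusted p 0.0223). Its Q92 libraries, at 9.03 and 8.68 CPM, lay between both KO libraries. Tlr3 missed the threshold with an adjusted p of 0.0749 with KO replicate 1 left out and 0.0791 with KO replicate 2 left out, in a range of 3.23e-06 to 0.723 over all of its alternatives. For Hydin the call ended at an adjusted p of 0.0677 with WT replicate 1 left out (range over its alternatives 1.15e-07 to 0.723). Cx3cl1, Tlr3 and Hydin lie on chromosome 8, which shifted as a whole in this comparison. With each chromosome centred on its median in every library their changes were 3.14, 2.47 and 2.23, all still called.

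**Figure D2:**
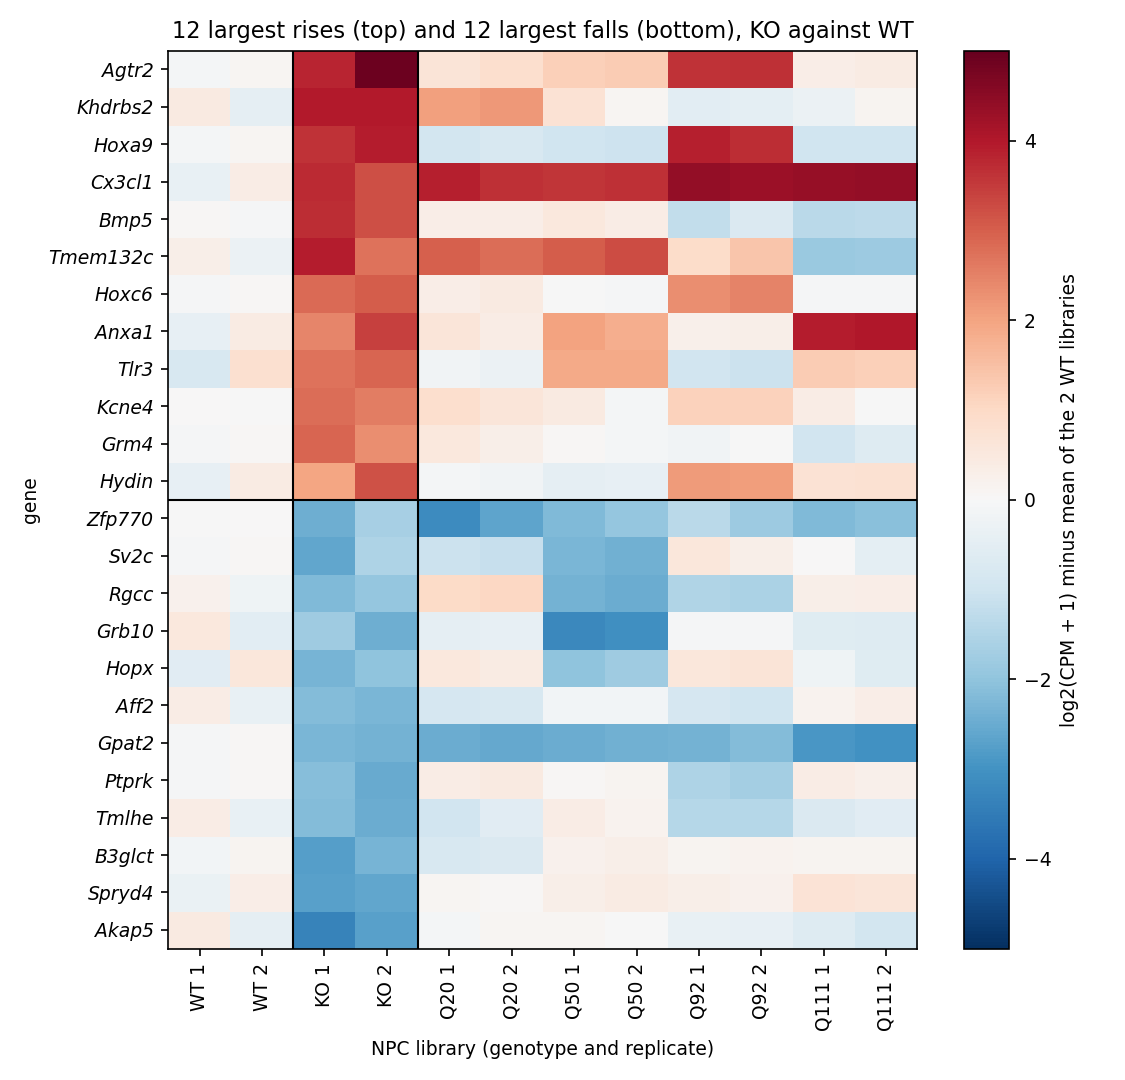
Log2(CPM + 1) minus the mean of the 2 WT libraries (colour) for the 12 genes with the greatest rise and the 12 with the greatest fall of those named by rule (rows) in the 12 NPC libraries (columns). KO libraries differ from WT in every row, while rows such as Cx3cl1, Gpat2 and Zfp770 show WT apart from all other genotypes and Hoxa9 shows KO and Q92 high together.

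Among the falls, Akap5, an anchoring protein that holds protein kinase A and calcineurin at synapses and membranes (chromosome 12, 76324891 to 76334153), stood at 13.5 and 6.90 CPM in WT and 0.0591 and 0.618 CPM in KO, a change of -3.03 (SE 0.31, adjusted p 0.00433). The 8 knock-in libraries lay between 4.64 and 10.5 CPM, so the KO libraries stood alone at the bottom. Spryd4, a SPRY-domain protein gene (chromosome 10), fell from 16.9 and 27.3 CPM to 2.38 and 2.75 CPM, by 2.66 (SE 0.22, adjusted p 0.00156) on the log2 scale. B3glct, the glucosyltransferase that extends O-fucose on thrombospondin repeats (chromosome 5, 149678230 to 149762599), fell from 36.7 and 45.5 CPM to 5.13 and 7.44 CPM, by 2.54 (SE 0.19, adjusted p 0.000901). For Spryd4 and B3glct too, both KO libraries were below all 10 others, and the lowest knock-in library stood at 22.2 CPM for Spryd4 and 23.2 CPM for B3glct. Ptprk, a receptor tyrosine phosphatase, fell from 20.5 and 21.8 CPM to 4.09 and 2.86 CPM, by 2.32 (SE 0.19, adjusted p 0.00131), and Q92 was next at 6.59 and 5.85 CPM. Tmlhe, the first enzyme of carnitine synthesis, fell from 14.6 and 8.37 CPM to 1.67 and 1.16 CPM, by 2.33 (SE 0.27, adjusted p 0.00757). Aff2, a nuclear protein gene on the X chromosome whose human counterpart lies at a fragile site, fell from 21.7 and 12.8 CPM to 2.89 and 2.66 CPM, by 2.23 (SE 0.24, adjusted p 0.00506). The KO libraries were the lowest of the 12 for all of these 6 genes. edgeR did not call Akap5, with an adjusted p of 0.0513 for Akap5 (range over its alternatives 9.55e-09 to 0.574).

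In other falls the KO libraries shared their low level with a knock-in line. Gpat2, a mitochondrial glycerol-3-phosphate acyltransferase known from the germ line, was at 15.0 and 16.1 CPM in WT and 2.44 and 2.22 CPM in KO (change -2.31, SE 0.15, adjusted p 0.000449), and every knock-in library lay between 1.02 and 2.70 CPM. Zfp770, a zinc finger gene, stood at 89.9 and 90.9 CPM in WT and 15.7 and 28.2 CPM in KO (change -2.05, SE 0.30, adjusted p 0.0238), and the WT libraries were again above all 10 others. For both genes WT was the line that stood apart. Hopx, an atypical homeodomain protein, fell from 10.1 and 22.7 CPM to 2.22 and 3.01 CPM, by 2.17 (SE 0.34, adjusted p 0.0268). Rgcc, a regulator of cell cycle kinases, fell from 12.3 and 8.78 CPM to 1.46 and 1.95 CPM, by 2.08 (SE 0.20, adjusted p 0.00269). Sv2c, a synaptic vesicle glycoprotein, fell from 16.0 and 17.2 CPM to 1.89 and 5.01 CPM, by 2.08 (SE 0.33, adjusted p 0.0275). In all 3, Q50 was as low as KO, at 3.00 and 3.70 CPM for Hopx, 1.22 and 1.03 CPM for Rgcc and 2.59 and 2.29 CPM for Sv2c. Grb10, an imprinted adaptor protein that damps insulin and IGF receptor signalling, fell from 41.8 and 19.7 CPM to 7.61 and 4.44 CPM, by 2.12 (SE 0.34, adjusted p 0.0275), and Q50 was lower still at 2.20 and 2.55 CPM. The call of Zfp770 was lost at an adjusted p of 0.0666 with KO replicate 1 left out and 0.0671 with WT replicate 1 left out, and its alternatives spanned 1.51e-07 to 0.643. With 1 library fewer, Hopx had an adjusted p of 0.0997 with KO replicate 1 left out and 0.0629 with KO replicate 2 left out (range over its alternatives 6.29e-10 to 0.723). Sv2c missed the threshold with an adjusted p of 0.059 with KO replicate 1 left out and 0.0733 with WT replicate 1 left out, in a range of 8.26e-06 to 0.723 over all of its alternatives. For Grb10 the call ended at an adjusted p of 0.0929 with KO replicate 2 left out and 0.0503 with WT replicate 1 left out (range over its alternatives 3.73e-07 to 0.772).

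Hox genes gave the largest group of calls among the gene lists. Hox genes encode homeodomain transcription factors that lie in 4 clusters and are switched on from one end of a cluster to the other along the body axis, with low paralogue numbers in the hindbrain and high ones in the spinal cord. Of 39 listed genes 25 were in the table and 21 passed the filter; 8 of the 21 were called higher in KO and 0 lower, against 0.878% and 0.545% of all genes tested. Of the 19 that pass the filter without the KO libraries, 7 were called higher. The median change of the 21 was 1.10, against 0.033 over all 13206, and 1.22 with the members at 0 in both WT libraries set at their bound. Both KO libraries were above both WT libraries for 13 of the 21 and below for 1, against 15.8% and 13.9% of all genes. The list passed the filter through libraries at or above 1 CPM, so members silent in every line are not among the 21, and 2 of the 21 would not have passed without KO.

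Members with low and high paralogue numbers are given apart as a description, since the division at number 5 was chosen after the values were seen and the difference was not tested. Of the 11 tested members with paralogue numbers 6 to 10, both KO libraries were above both WT libraries for 11, and 6 were called. Hoxa6 and Hoxd9 would not have passed the filter without their KO libraries; of the other 9, KO was above WT for 9 and 5 were called. Of the 10 with numbers 1 to 5, this held for Hoxc5 and Hoxd4, the 2 called. In the HoxA cluster Hoxa9 (chromosome 6, 52223100 to 52231089) rose from 1.02 and 1.25 CPM to 24.9 and 31.7 CPM, by 3.77 (SE 0.16, adjusted p 5.8e-05). Its neighbour Hoxa10 (52231197 to 52240854) rose from 0.543 and 0.761 CPM to 6.95 and 6.17 CPM, by 2.19 (SE 0.13, adjusted p 0.000449), and Hoxa7 (52214491 to 52221854) from 0.350 and 1.60 CPM to 11.4 and 6.54 CPM, by 2.37 (SE 0.37, adjusted p 0.0259). The genes at the other end of the same cluster did not pass the test. Hoxa5 stood at 14.9 and 16.5 CPM in WT and 2.81 and 21.9 CPM in KO (change -0.84, SE 0.66, adjusted p 0.682), the KO libraries lying on either side of WT, and Hoxa2 at 15.9 and 12.8 CPM and 9.87 and 18.4 CPM. In the genomic order the WT libraries held Hoxa2 to Hoxa5 at 2.75 to 16.5 CPM and Hoxa6 to Hoxa10 at 0.0736 to 1.60 CPM. The KO libraries held Hoxa7, Hoxa9 and Hoxa10 at 6.17 to 31.7 CPM. Hoxa6 in KO, at 1.01 and 1.11 CPM, stayed within that WT range, though above its own WT levels of 0.683 and 0.0736 CPM. Hoxa6 was not called (change 0.61, SE 0.20, limma adjusted p 0.216). Hoxa3 was the 1 tested Hox gene below WT in both KO libraries, at 6.39 and 7.65 CPM in WT and 5.91 and 5.21 CPM in KO (change -0.29, SE 0.16, adjusted p 0.512).

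A promoter window is shown for each of the 3 called HoxA genes and for Hoxa5. Hoxa5 is an uncalled neighbour with reads in all 4 WT and KO libraries. The windows were chosen because they lie within a stretch of chromosome 6 and their genes differed in response. The sequences are from the RefSeq promoter table on GRCm38.p6, 250 bases before to 50 after a start site, minus strand, 5′ to 3′, with CG dinucleotides, the sites of DNA methylation, in capitals. They lie at chr6:52204538-52204837, chr6:52218524-52218823, chr6:52227321-52227620 and chr6:52240805-52241104. Hoxa10 has 2 RefSeq entries, and only the entry nearest the outer annotated end of the gene is shown. The Hoxa7 and Hoxa9 windows lie inside the annotated gene spans, whose outer ends are at 52221854 and 52231089. The start sites used in these cells were not determined, so the windows need not be the promoters in use.
Hoxa5: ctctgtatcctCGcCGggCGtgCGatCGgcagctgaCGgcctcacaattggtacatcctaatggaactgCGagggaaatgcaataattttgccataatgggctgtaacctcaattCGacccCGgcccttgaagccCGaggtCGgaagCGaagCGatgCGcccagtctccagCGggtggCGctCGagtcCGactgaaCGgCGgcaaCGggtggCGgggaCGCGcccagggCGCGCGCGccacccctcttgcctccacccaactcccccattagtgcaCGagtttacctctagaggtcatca
Hoxa7: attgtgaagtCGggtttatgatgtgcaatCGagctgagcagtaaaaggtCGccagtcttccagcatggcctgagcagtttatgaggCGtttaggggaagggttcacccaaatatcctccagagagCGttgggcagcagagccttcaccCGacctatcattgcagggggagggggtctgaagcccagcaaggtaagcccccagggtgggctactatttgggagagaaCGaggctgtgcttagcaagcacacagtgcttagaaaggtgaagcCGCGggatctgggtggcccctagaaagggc
Hoxa9: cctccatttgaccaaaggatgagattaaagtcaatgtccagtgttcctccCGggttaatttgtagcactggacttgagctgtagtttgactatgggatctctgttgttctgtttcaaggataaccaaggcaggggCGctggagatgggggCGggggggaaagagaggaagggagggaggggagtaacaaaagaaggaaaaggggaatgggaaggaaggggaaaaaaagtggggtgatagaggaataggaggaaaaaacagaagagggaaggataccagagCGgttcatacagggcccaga
Hoxa10: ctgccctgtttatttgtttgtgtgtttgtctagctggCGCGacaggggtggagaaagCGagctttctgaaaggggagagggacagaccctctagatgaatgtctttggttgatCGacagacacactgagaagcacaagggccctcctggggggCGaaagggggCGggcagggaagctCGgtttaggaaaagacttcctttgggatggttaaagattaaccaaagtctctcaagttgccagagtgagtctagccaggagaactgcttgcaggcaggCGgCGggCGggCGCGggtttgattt
The Hoxa5 window holds 29 CG dinucleotides, that of Hoxa7 9, that of Hoxa9 4 and that of Hoxa10 12, against a median of 7 over the 32851 promoters of the table. Of those promoters, 12.9% hold at least 29 and 62.1% at most 12. The Pbx-Hox motif TGATNNAT, the Meis motif TGACAG and the caudal-type motif TTTATNG, searched on both strands with overlaps counted, are found in none of these 4 windows and in 8.85%, 19.2% and 10.9% of all promoters of that length. Methylation was not measured.

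In the other clusters, Hoxc6 (chromosome 15, 102998257 to 103011881) rose from 0 and 0.0614 CPM to 6.41 and 7.45 CPM, by 2.94 (SE 0.12, adjusted p 5.8e-05). Hoxd8 (chromosome 2, 74704615 to 74707933) rose from 0.263 and 0.380 CPM to 7.02 and 6.69 CPM, by 2.57 (SE 0.46, adjusted p 0.0418), and Hoxd9 from 0.158 and 0.0368 CPM to 2.15 and 1.06 CPM, by 1.22 (SE 0.19, adjusted p 0.0256). These 3 were higher in both KO libraries than in all 10 other NPC libraries. Hoxd4 was at 0 in both WT libraries and at 5.04 and 3.05 CPM in KO, at least 90.6-fold higher when WT is set at 3 reads per library, and Hoxc5 at 0 in WT and 0.985 and 1.31 CPM in KO, at least 25.7-fold higher on the same floor. Their limma adjusted p were 0.00269 and 0.00435. No HoxB gene was called by limma with all libraries. Of 7 tested, 4 were higher in both KO libraries, against 15.8% of all genes. The KO libraries of Hoxb9 were far apart, with levels of 0.228 and 0.540 CPM in WT and 21.1 and 2.71 CPM in KO (change 2.72, SE 0.66, limma adjusted p 0.111). The Hoxb9 change was 1.43 with KO replicate 1 left out and 4.01 with KO replicate 2 left out. For Hoxb6 the change was 1.73 with all libraries and 2.59 with KO replicate 2 left out. Across the genotypes the summed level of the 25 Hox genes was 83.8 and 75.0 CPM in WT, 148 and 163 in KO, 233 and 238 in Q92 and 2.18 to 72.5 in the other 6 libraries. Hoxa9 was as high in Q92 (30.6 and 26.9 CPM) as in KO, and its highest level in the other knock-in lines was 0.236 CPM. The call of Hoxa7 was lost at an adjusted p of 0.0954 with KO replicate 1 left out and 0.07 with WT replicate 1 left out, and its alternatives spanned 0.000254 to 0.676. With 1 library fewer, Hoxd8 had an adjusted p of 0.132 with KO replicate 1 left out, 0.117 with KO replicate 2 left out and 0.118 with WT replicate 1 left out (range over its alternatives 0.0159 to 1). Hoxd9 missed the threshold with an adjusted p of 0.0577 with WT replicate 1 left out, in a range of 0.00415 to 0.723 over all of its alternatives. With edgeR the adjusted p was 0.0756 for Hoxa10 (range over its alternatives 4e-17 to 0.568) and 0.0505 for Hoxc5 (range over its alternatives 2.36e-05 to 0.599). edgeR called 3 and DESeq2 12 of the 21 Hox genes, all higher in KO, and the fit of 4 libraries 0; without KO replicate 2, Hoxa5 was called lower (adjusted p 0.00868), against an adjusted p of 0.682 with all libraries. Hoxa9, Hoxc5, Hoxc6 and Hoxd4 share annotated sequence with neighbouring genes of their cluster on the same strand, so the division of reads between neighbours is uncertain.

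**Figure D3:**
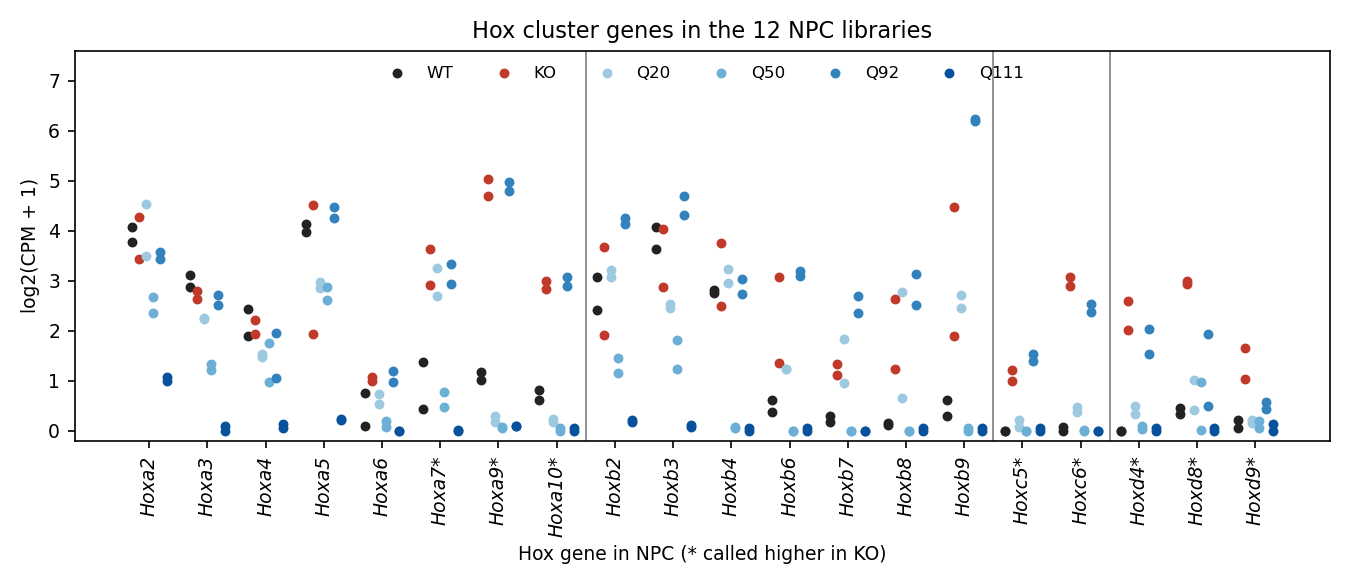
Log2(CPM + 1) of tested Hox genes with paralogue numbers from 2 to 10, in cluster order with lines between clusters, in the 12 NPC libraries (points, coloured by genotype); an asterisk marks a gene called higher in KO. KO (red) lies among or, for Hoxa3, below WT (black) from Hoxa2 to Hoxa5, and KO lies above WT from Hoxa6 to Hoxa10 and in the HoxC and HoxD genes, while Q111 is near 0 for nearly all genes.

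Factors that work with or beside Hox genes were also examined. Of 9 tested spinal patterning factors, 1 was called higher and 0 lower, against 0.878% and 0.545% of all genes tested. The call was Pax7, a paired-box factor of the dorsal neural tube and of muscle precursors. It stood at 0.280 and 0.430 CPM in WT and 4.59 and 3.26 CPM in KO (change 1.85, SE 0.18, limma adjusted p 0.00357), with KO above all other NPC libraries. Of the 9, 3 had an unadjusted limma p under 0.05, against 1755 of all 13206 genes. Among the 9, edgeR called 1 and DESeq2 2. Of the 7 Hox cofactors tested limma called 0 and 0 had an unadjusted p under 0.05; edgeR and DESeq2 called 0. Meis1, the cofactor with the highest level, stood at 149.8 and 109 CPM in WT and 159.6 and 77.9 CPM in KO. Of the 22 Polycomb genes, whose products keep silent Hox genes repressed, limma called 0, with 0 at an unadjusted p under 0.05, and edgeR and DESeq2 called 0; the median change was 0.039. Of 14 forebrain and midbrain factors limma called 0, 2 had an unadjusted p under 0.05, edgeR called 0 and DESeq2 1; Nr2f1, a nuclear receptor of cortical and hindbrain patterning, was at 41.2 and 41.7 CPM in WT and 23.2 and 11.8 CPM in KO (change -1.27, SE 0.36, adjusted p 0.164).

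The cells were checked against marker lists. The 19 neural progenitor markers in the table summed to 12099 and 9145 CPM in WT and 11293 and 7433 CPM in KO, and limma called 0 of the 19 (4 at an unadjusted p under 0.05, 0 by edgeR, 0 by DESeq2). Their leading members, the fatty acid carrier Fabp7, the glutamate transporter Slc1a3, the filament protein Vim and the phosphatase Ptprz1, lay between 643 and 3371 CPM in every WT and KO library. Pluripotency markers summed to 9.27 to 18.6 CPM in these 4 libraries, and fibroblast and mesenchyme markers, which feeder cells would carry, to 92.1 and 81.0 CPM in WT, 54.1 and 73.6 CPM in KO and 1002 and 979 CPM in Q50. Of the 12 fibroblast and mesenchyme markers, 7 were below WT in both KO libraries, against 13.9% of all genes, and the median change was -0.32. Col3a1, a fibrillar collagen of mesenchyme, was the 1 fibroblast marker called, lower in KO, at 24.0 and 21.8 CPM in WT and 10.6 and 10.1 CPM in KO (change -1.07, SE 0.16, adjusted p 0.0242). Its knock-in libraries ran from 1.28 CPM in Q111 to 630 CPM in Q50. Gata4, an endoderm and heart factor, was called higher among the 3 tested endoderm and mesoderm markers, at 0.490 and 1.30 CPM and 5.68 and 4.76 CPM (change 1.74, SE 0.19, adjusted p 0.00631), the highest of the 12 libraries but at a low level. Gata4 would not have passed the filter without its KO libraries, and the edgeR adjusted p was 0.0863 for Gata4 (range over its alternatives 0.00112 to 0.646). For Col3a1 the call ended at an adjusted p of 0.0641 with KO replicate 1 left out, 0.0669 with KO replicate 2 left out and 0.0544 with WT replicate 1 left out (range over its alternatives 3.67e-10 to 0.907).

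Of 9 tested astrocyte markers 1 was called, lower in KO, against 0.545% of all genes. Both KO libraries were below both WT libraries for 3 of the 9, against 13.9% of all genes. An unadjusted limma p under 0.05 held for 4 of the 9 markers, against 1755 of all 13206 genes. Of the 9 markers, edgeR called 0 and DESeq2 1. Their summed level overlapped between the groups, at 2936 and 2042 CPM in WT and 2094 and 1356 CPM in KO. Aldh1l1, a folate enzyme used to mark astrocytes, stood at 70.3 and 33.9 CPM in WT and 15.8 and 8.14 CPM in KO, a change of -2.01 (SE 0.37, adjusted p 0.0437). The groups did not overlap, and the knock-in lines spanned them, from 3.75 and 4.10 CPM in Q92 to 235 and 215 CPM in Q20. The median change of the 9 from WT to KO was -1.04, and the median difference of replicate 2 from replicate 1 was -1.03 within WT and -1.41 within KO. The other members did not pass: the glutamate transporter Slc1a2 was at 532 and 123 CPM in WT and 175 and 42.6 CPM in KO, and Aldoc, the aldolase of brain, at 1257 and 1009.5 CPM and 1124 and 844 CPM. In bulk RNA, fewer cells of a type and less of its RNA per cell cannot be told apart. The call of Aldh1l1 was lost at an adjusted p of 0.131 with KO replicate 2 left out and 0.0979 with WT replicate 1 left out, and its alternatives spanned 1.83e-05 to 0.84. Among 12 neuron markers limma called 0 (4 at an unadjusted p under 0.05, 0 by edgeR, 3 by DESeq2), and among 8 oligodendrocyte lineage markers 0 (2 at an unadjusted p under 0.05, 0 by edgeR, 2 by DESeq2).

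For genes of cell division the libraries of one genotype lay farther apart than KO and WT did. The 29 genes of DNA replication and mitosis summed to 3304 and 11278 CPM in the WT libraries and 5285 and 12319.7 CPM in the KO libraries. WT replicate 1 and KO replicate 1 were low and WT replicate 2 and KO replicate 2 high: 29 of 29 genes were higher in the second WT library and 28 of 29 in the second KO library. Mki67, a marker of cycling cells, was at 498 and 1424 CPM in WT and 487 and 1531 CPM in KO, and Top2a, the topoisomerase of mitotic chromosomes, at 569 and 1459 and 652 and 1675 CPM. Of the 29, limma called 0, with 0 at an unadjusted p under 0.05, and edgeR and DESeq2 called 0. The 24 Notch pathway genes went the other way, from 2350.0 to 1166 CPM between the WT libraries and from 1865 to 1031 CPM between the KO libraries; limma called 0 of 23 tested, 2 had an unadjusted p under 0.05, and edgeR and DESeq2 called 0. Over all genes tested, the log2 difference between libraries of one genotype had an SD of 0.869 in WT and 0.689 in KO, against 0.486 to 0.535 in the knock-in lines. With a replicate block over all libraries 145 genes were called, and 941 with a block only in KO and WT, a setting chosen after seeing the data.

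**Figure D4:**
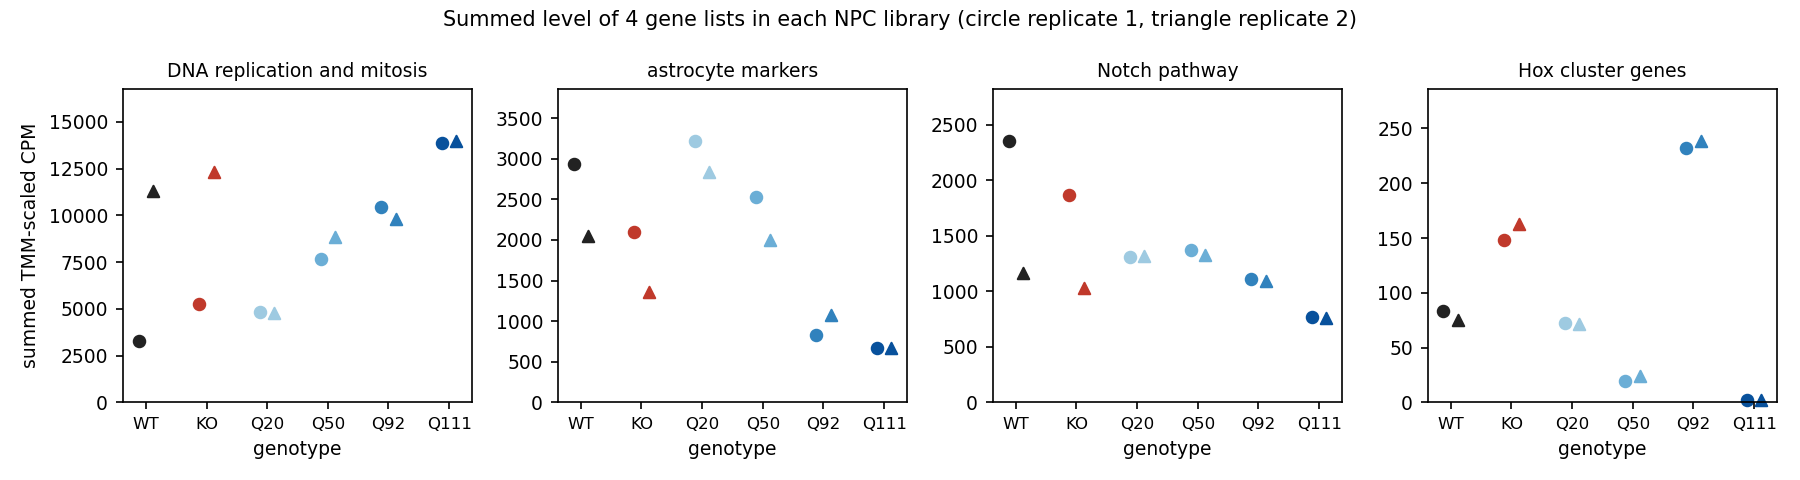
Summed TMM-scaled CPM (vertical axis, from 0) of 4 gene lists in each NPC library by genotype; circles are replicate 1 and triangles replicate 2. For replication and mitosis, astrocyte and Notch genes the libraries of WT and of KO are far apart, while for Hox genes both KO libraries lie above both WT libraries.

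Of the 7 signalling lists, the BMP and TGF-beta, EGF and FGF, Wnt and angiotensin lists had 1 call each, the last being Agtr2, and the Notch, Hedgehog and neurotrophin lists 0. Over all genes tested, limma called 1.42%. Of 10 tested Hedgehog genes 0 had an unadjusted p under 0.05 and edgeR and DESeq2 called 0; of 7 tested neurotrophin and receptor genes 2 had an unadjusted p under 0.05, edgeR called 0 and DESeq2 2. Bmp5 was the 1 call of 27 tested genes of the BMP and TGF-beta pathway, and the type 2 receptor Bmpr2 was at 339 and 244 CPM in WT and 291 and 243 CPM in KO. In EGF and FGF signalling, which the medium stimulates, Dusp4, a phosphatase of MAP kinases induced by the pathway, was the 1 call of 25, at 1.79 and 5.78 CPM in WT and 18.0 and 28.9 CPM in KO (change 2.45, SE 0.45, adjusted p 0.0437). Both WT libraries were below all 10 others for Dusp4, and its knock-in libraries ran from 6.94 to 28.2 CPM. The list's median change was 0.29, and 10 of its 25 members were higher in both KO libraries, a share to be read against 15.8% of all genes. An unadjusted limma p under 0.05 held for 10 of the 25, against 1755 of all 13206 genes. Of the 25, edgeR called 0 and DESeq2 3, against 107 and 905 of all genes. Sfrp1, a secreted inhibitor of Wnt, was the 1 call of 26 Wnt genes, lower in KO at 16.8 and 17.8 CPM in WT and 8.50 and 7.06 CPM in KO (change -1.06, SE 0.19, adjusted p 0.043). Its knock-in libraries ran from 2.88 CPM in Q111 to 124 CPM in Q20. Of the 26 Wnt genes, 7 had an unadjusted limma p under 0.05, edgeR called 1 and DESeq2 7 (1 higher, 6 lower). Wnt7b, a ligand, was at 93.5 and 98.3 CPM in WT and 23.5 and 21.5 CPM in KO, without overlap, but did not pass (change -2.04, SE 0.57, adjusted p 0.155). Both Dusp4 and Sfrp1 lie on chromosome 8, and with each chromosome centred the Dusp4 call was lost (change 2.10, adjusted p 0.0747) and Sfrp1 stayed called. With 1 library fewer, Dusp4 had an adjusted p of 0.081 with KO replicate 1 left out, 0.147 with KO replicate 2 left out and 0.096 with WT replicate 1 left out (range over its alternatives 4.25e-05 to 0.751). Sfrp1 missed the threshold with an adjusted p of 0.0803 with KO replicate 1 left out, 0.13 with KO replicate 2 left out and 0.0802 with WT replicate 1 left out, in a range of 5.36e-07 to 0.93 over all of its alternatives.

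Among adhesion and guidance genes, Slit1, a secreted repellent of axons, rose from 6.80 and 3.78 CPM to 30.6 and 15.8 CPM, by 1.92 (SE 0.35, adjusted p 0.0439), and Epha3, an ephrin receptor, fell from 3.75 and 3.98 CPM to 1.02 and 1.43 CPM, by 1.13 (SE 0.20, adjusted p 0.035). They were the 2 calls of 37 axon guidance genes, against 1.42% of all genes tested. For both, the knock-in libraries reached above and below all WT and KO levels. Of the 37, 15 had an unadjusted limma p under 0.05, against 1755 of all 13206 genes. For this list edgeR called 0 and DESeq2 9 (2 higher, 7 lower), against 107 and 905 of all genes. Itgb1, the beta 1 subunit shared by the receptors for laminin, the coating of the dishes, was at 864 and 1032 CPM in WT and 1519.5 and 1642 CPM in KO, a change of 0.74 (SE 0.13, adjusted p 0.0394). It was the 1 call of 36 collagen, matrix and receptor genes and lies on chromosome 8. With each chromosome centred its change was 0.39 (limma adjusted p 0.207). Of the 36, 14 had an unadjusted limma p under 0.05, edgeR called 1 and DESeq2 8 (5 higher, 3 lower). Of genes that encode partners of huntingtin, Sh3gl3, the endocytic protein endophilin A3, was the 1 call of 22, lower in KO at 14.6 and 13.9 CPM in WT and 4.62 and 6.38 CPM in KO (change -1.24, SE 0.21, adjusted p 0.0301). Sh3gl3 was as low in Q92, at 5.47 and 5.33 CPM, and above WT in Q20, at 54.9 and 44.3 CPM. The clathrin heavy chain Cltc, the partner with the highest level, was at 955 and 1051 CPM in WT and 998 and 1043 CPM in KO. For Slit1 the call ended at an adjusted p of 0.13 with KO replicate 1 left out (range over its alternatives 4.72e-05 to 0.82). The call of Epha3 was lost at an adjusted p of 0.129 with KO replicate 1 left out, 0.065 with KO replicate 2 left out and 0.0788 with WT replicate 1 left out, and its alternatives spanned 8.83e-05 to 0.864. With 1 library fewer, Itgb1 had an adjusted p of 0.0814 with KO replicate 1 left out, 0.11 with KO replicate 2 left out and 0.0864 with WT replicate 1 left out (range over its alternatives 6.09e-07 to 0.982). Sh3gl3 missed the threshold with an adjusted p of 0.101 with KO replicate 1 left out and 0.0778 with WT replicate 1 left out, in a range of 7.64e-08 to 0.866 over all of its alternatives.

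Of 27 tissue-specific splicing regulators, Khdrbs2 was called higher and Celf2, which binds GU-rich RNA in brain and muscle, lower, at 109.7 and 88.2 CPM in WT and 49.3 and 47.0 CPM in KO (change -1.02, SE 0.17, adjusted p 0.0303). The knock-in libraries of Celf2 ran from 44.1 CPM in Q92 to 128 CPM in Q111. An unadjusted limma p under 0.05 held for 7 of the 27, against 1755 of all 13206 genes. Of the 27, edgeR called 0 and DESeq2 4. Over all genes tested, limma called 1.42%. Qk, the regulator with the highest level, was at 1369 and 1233 CPM in WT and 1702 and 960.2 CPM in KO. Twnk, the helicase of mitochondrial DNA, was the 1 call of 13 genes of mitochondrial biogenesis, lower in KO at 27.1 and 27.6 CPM in WT and 13.3 and 14.3 CPM in KO (change -0.93, SE 0.17, adjusted p 0.0483), below all 10 other libraries, with WT above them. Among 20 genes of the REST repressor complex and its neuronal targets, a set tied to huntingtin in earlier work, limma called 0 (3 at an unadjusted p under 0.05, 0 by edgeR, 3 by DESeq2), and Rest itself was at 135 and 125 CPM in WT and 105 and 70.0 CPM in KO (change -0.60, SE 0.29, adjusted p 0.452). For Celf2 the call ended at an adjusted p of 0.0881 with KO replicate 1 left out, 0.0946 with KO replicate 2 left out and 0.0812 with WT replicate 1 left out (range over its alternatives 1.47e-05 to 0.772). The call of Twnk was lost at an adjusted p of 0.139 with KO replicate 1 left out, 0.0948 with KO replicate 2 left out and 0.0866 with WT replicate 1 left out, and its alternatives spanned 7.47e-07 to 0.982. In all, 21 of the 36 lists had no limma call. Counted once per list, 28 of the 288 members tested in these 21 lists had an unadjusted limma p under 0.05, against 1755 of all 13206 genes. Of the 288, edgeR called 0 and DESeq2 15, against 107 and 905 of all 13206.

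By chromosome, the genes of chromosome 8 were higher in KO as a whole. The median change of its 708 tested genes was 0.45, 80.5% of them had a change above 0, and both KO libraries were above both WT libraries for 329 and below for 42. Outside chromosome 8, 52.9% of genes had a change above 0 and the median was 0.022; the next highest autosome was chromosome 1 at 0.12, and the other autosomes and X lay between -0.023 and 0.048. The medians of its 13 windows of 10 Mb were all above 0 but uneven. They were 0.10 from 100 to 110 Mb, 0.19 from 110 to 120 Mb and 0.36 to 0.67 in the other windows. Chromosome 8 held 33 of the 188 calls (17.6%) and 5.36% of the genes tested, with 30 of the 33 higher in KO. On the other chromosomes 86 genes were called higher and 67 lower (1.23% of 12485). These include the calls on X, 5 higher and 11 lower among 462 tested genes. The share called was 4.66% on chromosome 8 and next highest on X, at 3.46%. The remaining 2 calls, both lower, are among 13 tested genes without a matched position; they are Tmlhe and Spry3, the latter named after its value was seen.

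Against the median of the 12 NPC libraries, the chromosome 8 median was -0.29 and -0.17 in the WT libraries and 0.12 in both KO libraries, and from -0.15 to 0.16 in the knock-in ones. WT was thus the lowest genotype and KO lay within the range of the others. In the mESC table the WT libraries were also the lowest, at -0.35 and -0.26, with KO at -0.02 and -0.035. Chromosome 1 shifted less in NPC than in mESC, where its median KO minus WT change was 0.30; the difference between the separately scaled tables was not tested. DNA copy number was not measured. Centring each chromosome left 135 calls, 133 of them among the 188, and leaving out chromosome 8 left 136; both were chosen after seeing the data.

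**Figure D5:**
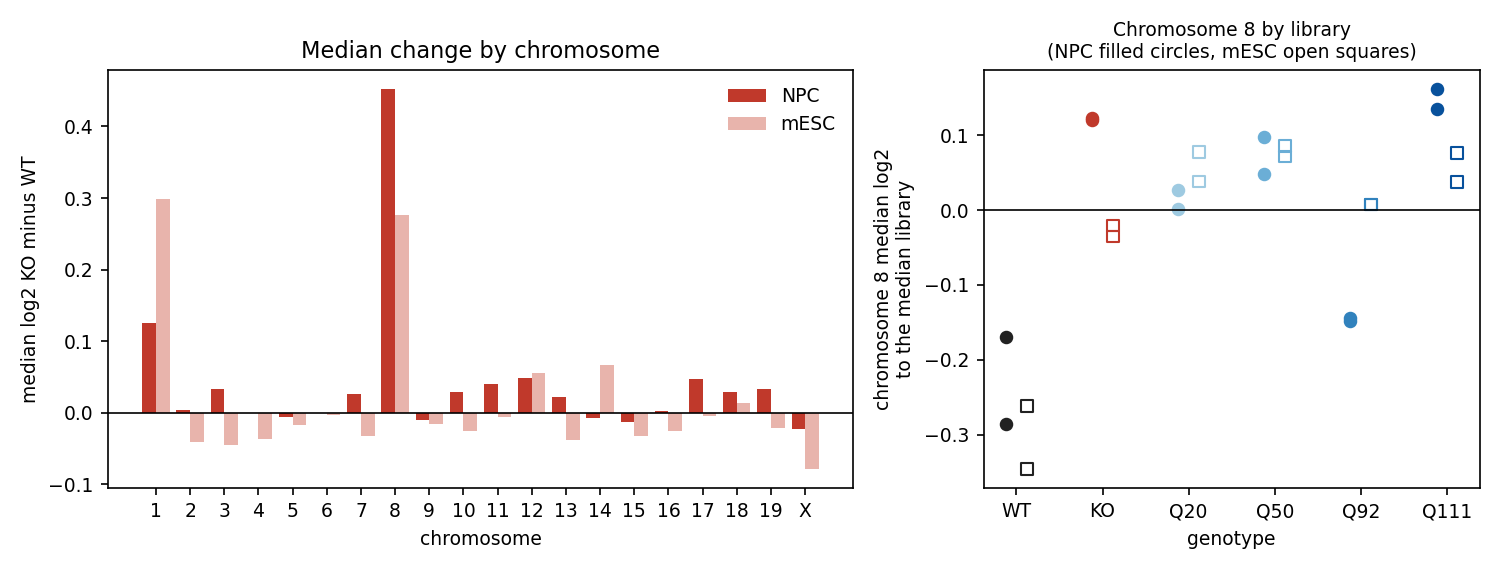
Left, median log2 change KO minus WT of all tested genes on each chromosome in NPC and in mESC; right, median log2 value of chromosome 8 genes relative to the median library of each table (NPC filled circles, mESC open squares) by genotype. Chromosome 8 reaches 0.45 in NPC, and its WT libraries are the lowest of 12 in both tables.

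KO and WT were also set against the knock-in lines. Both KO libraries lay above or below all 10 other NPC libraries for 83 of the 188 called genes, against 4.58% of all genes tested, and both WT libraries did so for 36, against 2.57%; since the calls were chosen for a difference between KO and WT, these shares are descriptions. For 83 of the 188, neither KO nor WT stood outside the range of the rest. Akap5, B3glct, Bmp5 and Khdrbs2 belonged to the first kind, Cx3cl1, Gpat2 and Zfp770 to the second, and Hoxa9, Hopx and Grb10 to the last. Which of the differences follow from the Htt allele and which from other features of the KO and WT lines cannot be told apart here.

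In mESC the same contrast gave 2 calls among 13916 genes (0.0144%). Htt there was 124 and 113 CPM in WT, 139 CPM in the library labelled KO 1 and 68.5 CPM in the library labelled KO 2, so the mESC KO libraries lay on either side of WT, and each mESC direction rests on the labels alone. Of the 188 genes called in NPC 149 were tested in mESC; 101 had a change of the same sign (67.8%), against 50.8% of the 12321 genes tested in both. On chromosome 8 this was 29 of 32 and elsewhere 72 of 117 (61.5%). B3glct was low in KO in both cell types, with mESC levels of 13.7 and 11.6 CPM in WT and 2.28 and 0.981 CPM in the libraries labelled KO (change -2.42, limma adjusted p 0.373). Hoxa7, Hoxa9 and Hoxc6 were not tested in mESC, and Hoxa10 stood at 0.181 to 1.10 CPM in the mESC libraries of both genotypes.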

How the data were processed

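Total RNA had been sequenced as paired-end reads, and the processing notes of the submitters list CASAVA 1.8, STAR and the build GRCm38.p6; the counting tool, its use of strand and the gene filter are not given in the sources used here. The deposited signal is, by the authors' table names, CPM per gene; in every library 100% of its values came out as whole reads (tolerance 0.01 reads), and TMM factors recomputed with edgeR from those reads gave the deposited values. Of 16024 NPC genes, 99.82% matched GENCODE M21, which gave positions. Genes with at least 1 CPM in at least 2 libraries were tested (13206; 2818 left out) as log2(CPM + 1) in limma 3.58.1 (R 4.3.3) with a mean per genotype over 12 libraries (6 residual degrees of freedom) and a variance trend, after a check on simulated data. The named genes were Htt, the 12 largest rises and 12 largest falls among non-overlapping calls whose higher group had a mean of at least 5 CPM, and every called member of 36 lists; uncalled members are those with the highest level, at most 4 per list, or cluster neighbours. The members and lists were chosen with earlier results of these data known. Alternatives used edgeR 4.0.16 and DESeq2 1.42.0 on the recovered reads, other scalings, filters and pseudocounts, a replicate block and leaving out libraries. Strand use being unknown, reads of the 20 of 43 named genes that overlap a gene on the opposite strand cannot be told apart from those of that gene. The values of 1 gene are not reported here.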

Additional observations from a re-analysis of the deposited data

Results flagged for a closer look

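Among the genes named by rule, 6 had NPC and mESC libraries on opposite sides without overlap, so that every KO library moved one way in NPC and the other way in mESC; the difference between cell types was not tested, the tables being scaled separately, and the library labelled KO 1 in mESC did not have lower Htt. Higher in KO NPC and lower in KO mESC were Cx3cl1 (mESC change -1.09), Tmem132c (-0.60) and Gata4 (-0.76). Lower in KO NPC and higher in KO mESC were Ptprk (0.29), Zfp770 (1.32) and Col3a1 (1.14). All 6 had a limma adjusted p of 1 in mESC. The mESC levels in WT were low for Cx3cl1 (1.33 and 2.30 CPM), Tmem132c (1.22 and 2.27 CPM) and Col3a1 (0 and 0.142 CPM). They were higher for Zfp770, at 18.0 and 18.6 CPM in WT and 52.6 and 42.7 CPM in the libraries labelled KO. Of all 149 NPC calls tested in mESC, 12 (8.05%) had non-overlapping mESC libraries opposite to the NPC change. Among the 12321 genes tested in both cell types the share was 10.9%, so opposition was no more frequent among the calls.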

How the results depend on the processing

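Under no alternative did a named change reverse its sign. Of the 188 calls (116 higher, 72 lower), the counts became 81 (42 and 39) with a mean of at least 5 CPM, 107 (57 and 50) with edgeR, 905 (462 and 443) with DESeq2, 0 (0 and 0) with the 4 libraries of KO and WT alone and 10 (6 and 4) with weights per genotype. Other pseudocounts, scalings and no filter gave 160 to 193. Leaving out 1 library gave 107 to 1577 calls, 59 to 942 higher and 48 to 635 lower. Settings chosen after seeing the data gave 135 (73 and 62) with each chromosome centred and 136 (76 and 60) without chromosome 8. The labels give each genotype a replicate 1 and 2 but do not say that a number marks a shared batch; WT and KO differences between replicates correlated over genes at r = 0.47, and the other genotype pairs at -0.049 to 0.17. With the replicate block over all libraries 145 genes were called (91 and 54), 139 of them among the 188, and with a block only in KO and WT, chosen after seeing the data, 941 (543 and 398). The Htt change passed the threshold under median-of-ratios scaling (-0.70), quantile normalization (-0.70), plain CPM (-0.72), DESeq2 (-0.71) and the block only in KO and WT (-0.67), and leaving out 1 library gave -0.85 to -0.49. The causes of these shifts were not tested, beyond fewer genes or libraries in the fit. With 2 libraries a group, the spread was estimated jointly over the 6 genotypes, and the knock-in replicates differed less than those of KO and WT. The shared estimate therefore tends to lie below the spread of KO and WT, so the p-values may be too small. The fitted weights were 0.234 for WT and 0.434 for KO, against 1.37 to 2.21 for the knock-in lines.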

Other observations

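The following called genes stand in no list above and were chosen after their values were seen. Ptn, the secreted growth factor pleiotrophin, was the most abundant of them, at 2845 and 1645 CPM in WT and 757 and 541 CPM in KO, a change of -1.75 (SE 0.30, adjusted p 0.0347) by limma. Both WT libraries were above all 10 other NPC libraries and both KO libraries below them. Mdk, its relative midkine, was called in the other direction but at a low level, 1.28 and 0.614 CPM in WT and 3.88 and 2.79 CPM in KO (change 1.17, SE 0.22). The knock-in libraries of Mdk ran from 0.893 CPM in Q111 to 35.9 CPM in Q20. Igfbp4, which binds insulin-like growth factors, rose from 90.8 and 152 CPM to 349.8 and 372 CPM (change 1.61, SE 0.23), above all other NPC libraries.

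Bid, which links death receptors to mitochondria, rose from 3.36 and 7.11 CPM to 24.8 and 24.6 CPM (change 2.11, SE 0.37); its KO libraries were the highest and its WT libraries the lowest of the 12. Zc3hav1, an antiviral protein that binds CG-rich RNA, rose from 43.0 and 37.8 CPM to 90.0 and 109 CPM (change 1.28, SE 0.16). Its knock-in libraries ran from 27.8 CPM in Q92 to 142 CPM in Q111. Bst2, the membrane tether of budding virus particles, rose from 1.45 and 2.12 CPM to 8.12 and 11.0 CPM (change 1.92, SE 0.27) and lies on chromosome 8. Its knock-in libraries ran from 2.20 CPM in Q92 to 12.2 CPM in Q20. Casp1, the protease of inflammasomes, was lower in level, at 0.280 and 0.614 CPM in WT and 2.63 and 4.30 CPM in KO (change 1.61, SE 0.21). Its knock-in libraries ran from 0 CPM in Q92 to 8.45 CPM in Q50.

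Prdm1, a transcriptional repressor in B cell and germ cell development, rose from 2.00 and 6.34 CPM to 26.8 and 19.6 CPM (change 2.35, SE 0.37). Runx2, a factor of bone formation, rose from 0.228 and 0.380 CPM to 2.55 and 3.11 CPM (change 1.55, SE 0.14). Tbx3 rose from 0.0701 and 0.0859 CPM to 1.47 and 1.47 CPM (change 1.20, SE 0.11). Thrb, a thyroid hormone receptor, fell from 2.38 and 1.88 CPM to 0.424 and 0.565 CPM (change -1.06, SE 0.17), and Gpx3, a secreted glutathione peroxidase, from 3.26 and 2.74 CPM to 0.512 and 0.626 CPM (change -1.35, SE 0.15). Gpx3 was lower still in Q92, at 0.149 and 0.235 CPM. The edgeR adjusted p missed the threshold for Casp1 (0.176), Mdk (0.0912), Prdm1 (0.0613), Bid (0.0597), Thrb (0.0513) and Ptn (0.0507). When 1 library was left out, Runx2, Tbx3, Zc3hav1, Casp1 and Gpx3 were called in all 4 fits. Ptn, Bid and Thrb were called only without WT replicate 2, with adjusted p in the other 3 fits from 0.0674 to 0.124 for Ptn, from 0.103 to 0.123 for Bid and from 0.0654 to 0.0997 for Thrb. For the rest, the highest adjusted p of the 4 fits was 0.167 for Mdk, 0.0729 for Igfbp4, 0.0729 for Bst2 and 0.103 for Prdm1.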
